A study of Mus musculus with 32 samples.

Results

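The Tdpoz genes of the mouse are a small family of intronless genes on chromosome 3, and 5 of them, Tdpoz1 to Tdpoz5, are followed here through preimplantation development. They were chosen by their gene symbols, 5 of the 24013 genes listed by stage and 4 of the 22536 genes (Tdpoz1 to Tdpoz4) listed for siRNA-injected embryos, and they were examined one by one and summed. Tdpoz5 has values by stage only. The summed level was 0.454 FPKM in zygotes, 122.3 FPKM at the 2-cell stage and 117.0 FPKM at the 4-cell stage, and it was back to 1.64 FPKM in the inner cell mass (ICM). FPKM stands for fragments per kilobase of transcript, scaled to the depth of the library, so levels can be set beside each other between genes.

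TDPOZ proteins join a TRAF-type MATH domain to a BTB/POZ domain. This is the arrangement found in SPOP, in which the MATH domain holds the substrate and the BTB domain binds the ubiquitin ligase scaffold CUL3. In the mouse the embryo's own genome is switched on mainly at the 2-cell stage, and Tdpoz transcripts are known from embryos of about that time.

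The data are RNA sequencing of polyadenylated RNA, made by Smart-seq2, a full-length cDNA method for very few cells, with modifications. MII oocytes were from C57BL/6N mice, and embryos from a cross of superovulated C57BL/6N mothers with DBA/2N fathers. The stages were MII oocyte, zygote, early 2-cell, 2-cell, 4-cell and 8-cell embryo (2 samples each), ICM isolated by immunosurgery (3 samples) and embryonic stem cells of the mouse line R1 (mESC, 2 samples), grown with LIF and serum. Knockdown embryos were of the same cross, were injected with siRNA and were grown in CZB medium with glutamine. At the 8-cell stage 4 libraries were controls and 4 had Nr5a2 knocked down, and at the blastocyst stage 3 were controls and 4 had Gata4 knocked down. The labels do not say what the control embryos were injected with, nor how many embryos went into a library. An siRNA lowers its target without removing it, and both knockdowns took place in whole embryos. The RNA is from whole embryos or tissue, so fewer cells of a type and less RNA per cell cannot be told apart.

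Each stage had 1 value per gene although 2 or 3 samples were sequenced, so differences between stages carry no error and no test. Total FPKM ran from 234738 to 495643 over the stages, and 8388 to 9580 genes reached 1 FPKM in a stage. Read totals are unknown. In the 8-cell knockdown libraries the steps that single fragments leave in low values gave a relative depth of 1 in the shallowest library (control 3) to 2.90 in the deepest (knockdown 1). Markers were checked against the labels. Gdf9, an oocyte growth factor, was highest in MII oocytes (3496 FPKM), Zscan4d, a marker of the 2-cell state, in early 2-cell embryos (87.5 FPKM, and 0 in the ICM), and Nanog, a pluripotency factor, in the ICM (288.3 FPKM, and 94.4 in mESC). Of 6 epiblast and pluripotency markers, Nanog among them, 2 were highest in the ICM and 4 in mESC. Sox2, for example, was at 8.03 FPKM in the ICM and 86.0 in mESC. Of 8 trophectoderm markers 2 were higher and 2 lower in the ICM than in 8-cell embryos (log2(FPKM + 1) apart by 1 or more, and 5 FPKM or more in one of the stages). Krt8 and Krt18 were at 62.7 and 86.1 FPKM in the ICM and Cdx2 at 1.61, while Hand1 went from 101.9 to 7.92 and Tfap2c from 46.3 to 7.63. Their summed level was 164.4 FPKM in 8-cell embryos, with Elf5 at 0, and 179.4 in the ICM, with none at 0, and their part in the low Tdpoz values there was not tested. Nr5a2 lay between 13.1 and 25.2 FPKM in the 4 control libraries and between 3.76 and 6.72 in the 4 Nr5a2 knockdown libraries (exact permutation test over 70 arrangements, two-sided p = 0.0286, the smallest this design allows). Gata4 lay between 0.716 and 5.44 FPKM in the 3 control libraries and between 0 and 0.368 in the 4 Gata4 knockdown libraries (exact permutation test over 35 arrangements, two-sided p = 0.0571, again the smallest possible).

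The 5 genes are related but distinct at the start of their coding sequences, and the first 60 coding bases are given here because they show by eye how far reads of one gene can be told from those of another. The sequences are those of GENCODE M21, 5′ to 3′, and capitals mark the bases that differ from Tdpoz1.
Tdpoz1: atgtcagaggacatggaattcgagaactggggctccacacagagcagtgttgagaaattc
Tdpoz2: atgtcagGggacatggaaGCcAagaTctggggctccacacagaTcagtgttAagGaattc
Tdpoz3: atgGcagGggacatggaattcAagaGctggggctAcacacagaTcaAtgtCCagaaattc
Tdpoz4: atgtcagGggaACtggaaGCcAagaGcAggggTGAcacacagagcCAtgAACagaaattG
Tdpoz5: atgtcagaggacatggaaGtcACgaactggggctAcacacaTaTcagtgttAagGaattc
Gm9125: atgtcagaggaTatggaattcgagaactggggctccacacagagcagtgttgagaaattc
Over these 60 bases Tdpoz2 and Tdpoz5 differ from Tdpoz1 at 8 bases each, Tdpoz3 at 9 and Tdpoz4 at 17, while Gm9125 differs from Tdpoz1 at 1.

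All 5 members have 1 exon in GENCODE M21, with a coding length of 1020 bases in Tdpoz5 to 1110 in Tdpoz4. Over the whole coding sequence, identity between 2 members ran from 77.3% (Tdpoz3 and Tdpoz4) to 88.0% (Tdpoz1 and Tdpoz3). The longest run shared without a mismatch by any 2 of them was 75 bases. No stretch of 100 coding bases of any member occurred in another member. The close copies are other genes of the same cluster. Tdpoz5 was identical over all 1020 aligned bases to Gm10697, named Tdpoz7 by RefSeq. Tdpoz1 matched Gm9125 (Tdpoz9) at 98.4% of aligned bases, and Tdpoz4 matched Gm4858 (Tdpoz8) at 94.2%.

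The share of 100-base coding windows that also occurred in some other gene of the annotation was 11.7% in Tdpoz4, 23.5% in Tdpoz2, 39.6% in Tdpoz1, 46.6% in Tdpoz3 and 100% in Tdpoz5. Tdpoz2 shared such windows with the pseudogenes Gm5773 and Gm9141, and Tdpoz3 with Gm4982. With windows of 50 bases the shares were larger. They were 41.0% in Tdpoz4, 49.1% in Tdpoz2, 63.0% in Tdpoz1, 66.1% in Tdpoz3 and 100% in Tdpoz5. At that size 0.58% (Tdpoz2) to 5.6% (Tdpoz1) of a member's windows also occurred in another member. How the authors assigned reads that match several copies is not given in the sources used here. The FPKM of a single member is therefore uncertain, most of all for Tdpoz5, whose coding reads cannot be told apart from those of Gm10697. Summing the 5 members removes shifts of reads among the members, but not those between a member and a copy outside the sum.

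**Figure D1:**
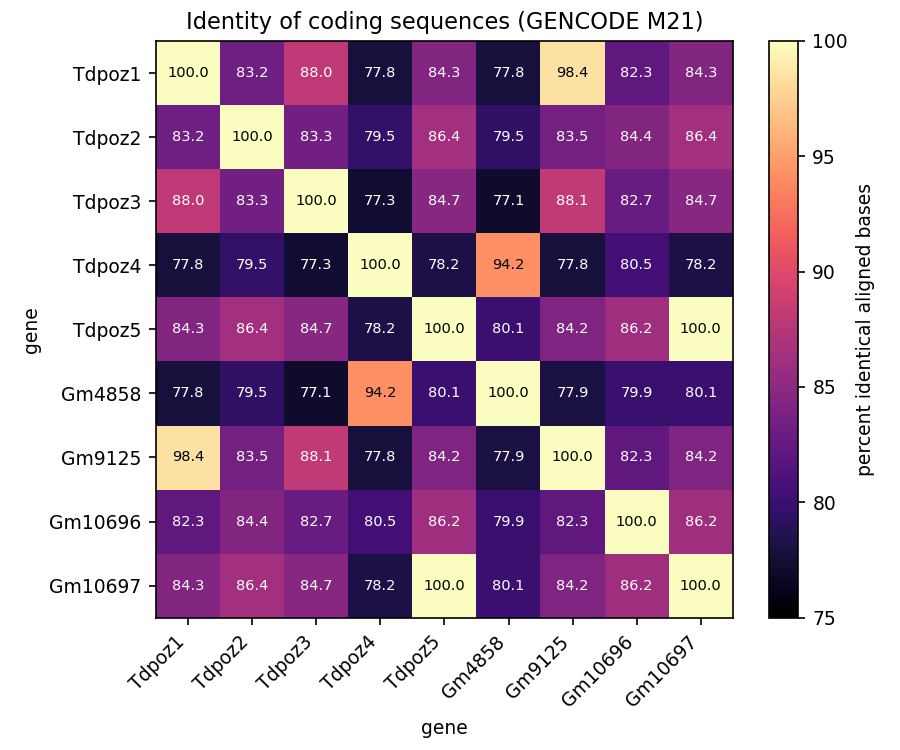
Percent of aligned coding bases that are identical between the 5 Tdpoz genes and 4 genes of the same cluster, from pairwise alignment of GENCODE M21 coding sequences. Pairs of Tdpoz genes lie between 77.3% and 88.0%, while Tdpoz5 and Gm10697 are at 100% and Tdpoz1 and Gm9125 at 98.4%.

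RefSeq orders the family on chromosome 3 from Tdpoz8 to Spopfm2 (Gm10696), a stretch of 42 genes of which 18 are protein coding, 22 are pseudogenes and 2 are lncRNA genes. Only 16 of the 42 were in the stage table, 8 of them outside the family. Of those 8, Tchh, which encodes the hair follicle protein trichohyalin, had its highest level at the 2-cell stage, 4.57 FPKM. S100a11 and S100a10, which encode small calcium-binding proteins, were high in the ICM and mESC, where the Tdpoz genes were low, but not in oocytes and zygotes. They were at 49.9 and 80.4 FPKM in the ICM and 43.3 and 183.9 in mESC, respectively. The other 5, Crnn, Flg2, Hrnr, Rptn and Tchhl1, did not exceed 0.4 FPKM at any stage. The Tdpoz pattern was thus not the pattern of every gene in the stretch.

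Upstream sequence came from RefSeq on GRCm38.p6, whose promoter table matched 3 of the 5 members (Tdpoz1, Tdpoz4 and Tdpoz5). The 250 bases before the annotated start are shown for Tdpoz1 and for the cluster copies Gm4858 and Gm10696, because all 3 genes had their highest stage value in 2-cell embryos and carry the same short words in the same order. Coordinates are chr3:93676284-93676533 on the minus strand for Tdpoz1, chr3:93068573-93068822 on the plus strand for Gm4858 and chr3:94178194-94178443 on the minus strand for Gm10696. Capitals mark TAATCC, which is GGATTA on the opposite strand, and TATATAA.
Tdpoz1: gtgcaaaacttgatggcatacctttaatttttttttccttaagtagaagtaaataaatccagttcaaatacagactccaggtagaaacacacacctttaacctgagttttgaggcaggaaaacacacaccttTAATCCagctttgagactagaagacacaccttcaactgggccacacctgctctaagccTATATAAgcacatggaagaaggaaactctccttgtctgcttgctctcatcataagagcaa
Gm4858: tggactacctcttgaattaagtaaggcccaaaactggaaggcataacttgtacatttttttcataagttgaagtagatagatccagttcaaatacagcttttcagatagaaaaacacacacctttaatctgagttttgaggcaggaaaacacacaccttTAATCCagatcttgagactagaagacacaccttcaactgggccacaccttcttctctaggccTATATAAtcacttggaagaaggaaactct
Gm10696: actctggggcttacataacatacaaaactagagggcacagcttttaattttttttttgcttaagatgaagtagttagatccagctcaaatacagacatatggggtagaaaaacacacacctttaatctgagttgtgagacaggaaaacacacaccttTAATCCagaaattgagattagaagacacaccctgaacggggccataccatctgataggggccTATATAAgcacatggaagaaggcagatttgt
The word GGATTA, read by homeobox factors of the OBOX, OTX and CRX type, was at position -118 from the annotated start in Tdpoz1, -91 in Gm4858 and -93 in Gm10696, each time on the minus strand relative to the gene. It occurs on either strand in 6.25% of all 32851 promoter windows. TATATAA followed it at positions -60, -29 and -31. That word was chosen after the sequences were seen, and 3.04% of all windows hold it. The Tdpoz1 window was 90.2% identical to that of Gm4858 over 215 aligned bases and 85.2% identical to that of Gm10696 over 209, so the shared words come with shared sequence. The Gm9125 window was identical to that of Tdpoz1 at all 222 aligned bases, with gaps in the alignment left out.

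The windows before Tdpoz4 and Tdpoz5 were of another kind. They shared 76.5% of bases with each other over 170 aligned bases and held neither GGATTA nor TATATAA. The Tdpoz4 window was 96.3% identical over 243 bases to that of a second annotated start of Gm4858. In Tdpoz4 the GATA word AGATAA lay at position -97 (9.99% of all windows hold it on either strand). In Tdpoz5 the word CCAAT lay at position -20 (33.8% of windows). None of the 3 members' windows held TATAAA (12.4% of windows), the NR5A2 word AAGGNCA (17.5%) or the DUX motif as searched here (0.177%). All words were searched on both strands. A match is a description of letters in this window. In GENCODE M21 the Tdpoz4 and Tdpoz5 transcripts hold 1113 and 1023 bases, of which 1110 and 1020 are coding. The Tdpoz1 transcript holds 2237 bases, of which 1095 are coding. Whether the annotated starts of Tdpoz4 and Tdpoz5 are where transcription begins was not tested. Their windows may therefore not be promoters, which limits the contrast with Tdpoz1.

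Tdpoz5 had the highest level of the 5 genes at every stage from early 2-cell to ICM. Its levels were 0.0416 FPKM in MII oocytes, 0.169 in zygotes, 14.4 in early 2-cell, 53.3 in 2-cell, 56.2 in 4-cell and 35.9 in 8-cell embryos, 0.591 in ICM and 0.0773 in mESC. It supplied 61.0% of the summed level in early 2-cell embryos and 43.6% at the 2-cell stage. The 2-cell and 4-cell values were alike, and the 8-cell value was still 63.9% of the highest.

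Tdpoz4 was listed at 0 in MII oocytes and zygotes and reached 2.06 FPKM in early 2-cell, 27.1 in 2-cell, 29.4 in 4-cell and 15.9 in 8-cell embryos. It fell to 0.318 FPKM in the ICM and was listed at 0 in mESC. Its course ran beside that of Tdpoz5, but its early 2-cell value was a smaller part of its highest value, 6.99% against 25.5% for Tdpoz5.

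Tdpoz1 was at 0.0707 FPKM in MII oocytes, 0.285 in zygotes, 2.69 in early 2-cell and 27.3 in 2-cell embryos. It was lower again at the 4-cell stage (14.5 FPKM) and the 8-cell stage (7.78), with 0.543 in the ICM and 0 in mESC. Of the 5 genes it had the clearest 2-cell maximum, 1.88 times the 4-cell value.

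Tdpoz2 had the lowest early 2-cell value of the 5, 4.81% of its highest, and the latest maximum. It was listed at 0 in MII oocytes and zygotes, and stood at 0.592 FPKM in early 2-cell, 8.85 in 2-cell, 11.2 in 4-cell and 12.3 in 8-cell embryos, with 0.123 in the ICM and 0 in mESC. Its highest stage was the 8-cell stage.

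Tdpoz3 had the lowest maximum of the 5, although it was second to Tdpoz5 in early 2-cell embryos. It was listed at 0 in MII oocytes and zygotes and was at 3.83 FPKM in early 2-cell, 5.77 in 2-cell, 5.65 in 4-cell and 0.776 in 8-cell embryos, then at 0.0648 in the ICM and 0.142 in mESC. Its early 2-cell value was already 66.3% of its highest, and its 8-cell value only 13.4%.

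The name given to the set, a family of the 2-cell stage, thus covers part of what was measured. The summed level was highest at the 2-cell stage, yet Tdpoz1 and Tdpoz3 alone had their maximum there. Tdpoz4 and Tdpoz5 were highest at the 4-cell stage and Tdpoz2 at the 8-cell stage. In full, the sum was 0.112 FPKM in MII oocytes, 0.454 in zygotes, 23.5 in early 2-cell, 122.3 in 2-cell, 117.0 in 4-cell and 72.6 in 8-cell embryos, 1.64 in ICM and 0.219 in mESC. Neighbouring stages in this order cannot be separated by their spread, because none was deposited. The 2-cell and 4-cell sums differed by a ratio of 1.05. Scaled to the same total of 1000000 FPKM in every stage, the sum was 521.1 at the 2-cell, 376.1 at the 4-cell and 216.4 at the 8-cell stage. Without Tdpoz5 it was 69.0, 60.8 and 36.8 FPKM at these 3 stages.

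**Figure D2:**
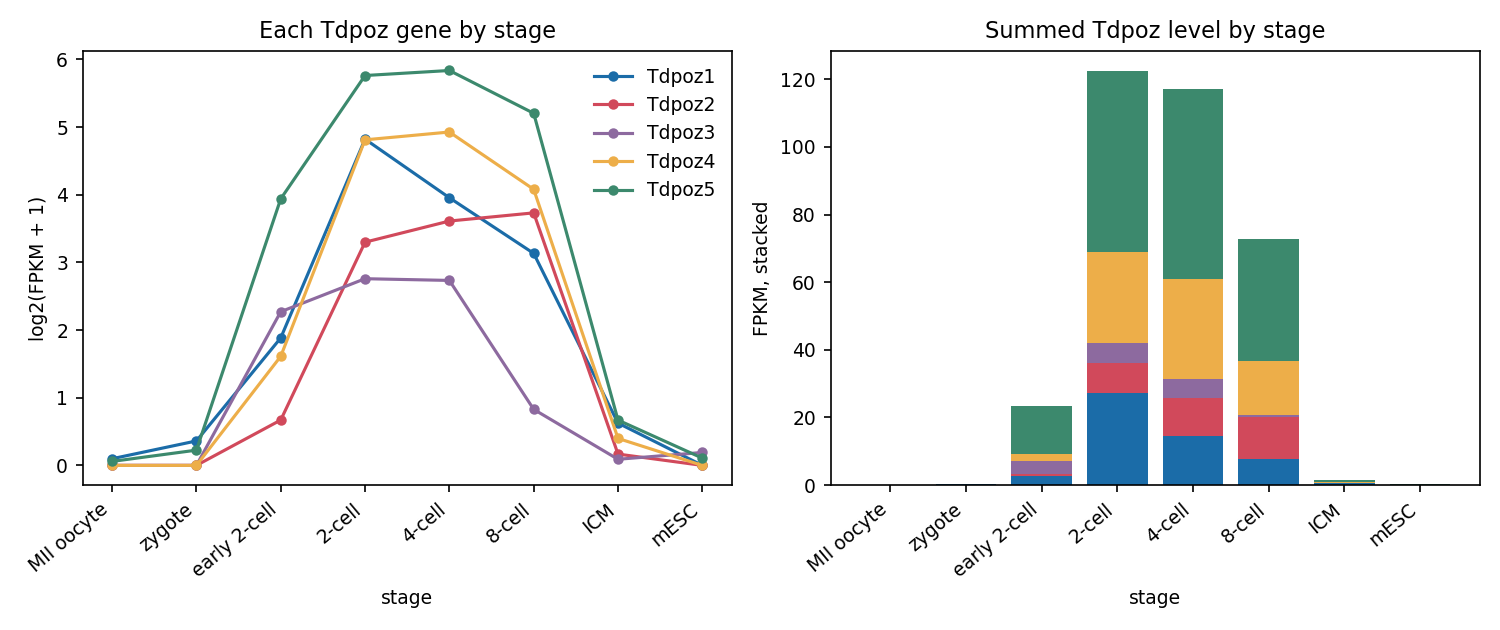
Left, log2(FPKM + 1) of each Tdpoz gene over the 8 stages; right, the same genes as stacked FPKM, so that bar height is the summed level. Each point is the 1 deposited value of that stage. The sum is 122.3 FPKM at the 2-cell stage, 117.0 at the 4-cell and 72.6 at the 8-cell stage.

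Across the 8 stages the members' log2(FPKM + 1) values followed each other with Pearson r from 0.70 (Tdpoz2 and Tdpoz3) to 0.98 (Tdpoz1 and Tdpoz4). These correlations describe 8 points that share their libraries and, in part, their reads.

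To set each step between stages beside all other genes, a gene was counted as changed when log2(FPKM + 1) differed by at least 1 and the higher stage had at least 5 FPKM. Only 9573 genes with a value in every stage reached 5 FPKM anywhere. The shares over all genes, here and beside the lists below, include the rest and so understate the share among expressed genes. From zygote to early 2-cell, Tdpoz5 alone of the 5 members was counted as higher, where 1.31% of all 24013 genes were. Tdpoz1, Tdpoz3 and Tdpoz4 rose by 1.52, 2.27 and 1.61 in log2 but were still below 5 FPKM. Tdpoz2 rose by 0.67. From early 2-cell to 2-cell, 4 of the 5 were counted as higher (10.5% of all genes), and Tdpoz3, which differed by 0.49 in log2, was the exception. The differences of the 4 were 1.82 for Tdpoz5, 2.63 for Tdpoz2, 2.94 for Tdpoz1 and 3.20 for Tdpoz4. From 2-cell to 4-cell none of the 5 was counted in either direction, where 6.58% of all genes were higher and 4.73% lower. From 4-cell to 8-cell only Tdpoz3 was counted as lower (2.43% of all genes), with a difference of -1.91. From 8-cell to ICM 4 of 5 were lower (6.03% of all genes). Tdpoz3, already at 0.776 FPKM, was again the exception. Over both steps together, from 2-cell to 8-cell, Tdpoz1 went from 27.3 to 7.78 FPKM, Tdpoz3 from 5.77 to 0.776, Tdpoz4 from 27.1 to 15.9 and Tdpoz5 from 53.3 to 35.9, while Tdpoz2 went from 8.85 to 12.3.

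The 3 cluster copies with stage values were all highest at the 2-cell stage. Gm4858 was at 2.71 FPKM in early 2-cell, 18.5 in 2-cell, 2.59 in 4-cell and 2.09 in 8-cell embryos. Gm9125, which carries the near-copy of Tdpoz1, was at 2.62, 32.4, 11.7 and 3.68 FPKM in the same 4 stages. Gm10696 was at 13.9, 35.3, 19.8 and 7.57 FPKM. None exceeded 0.4 FPKM in oocytes, zygotes, ICM or mESC. From 2-cell to 4-cell Gm4858 and Gm9125 were counted as lower, with differences of -2.44 and -1.39, whereas their closest members Tdpoz4 and Tdpoz1 differed by 0.12 and -0.87. With the 3 copies added, the sum was 208.5 FPKM at the 2-cell and 151.1 at the 4-cell stage.

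Among 36 other genes known for expression around the 2-cell stage, 17 had their highest value in early 2-cell embryos and 10 at the 2-cell stage, with 2 at the 4-cell and 4 at the 8-cell stage. Over all 9573 genes that reached 5 FPKM somewhere, 7.46% were highest in early 2-cell embryos and 8.02% at the 2-cell stage. From zygote to early 2-cell 27 of the 36 were higher and 1 lower (2.1% of all genes were lower). From early 2-cell to 2-cell 12 were higher and 12 lower (10.4% of all genes were lower). From 2-cell to 4-cell 5 were higher and 23 lower, with a median difference of -2.11, where the median of the 5 Tdpoz members was 0.07 and that of all genes 0. From 4-cell to 8-cell none of the 36 was higher, where 1.72% of all genes were, and 7 were lower. From 8-cell to ICM 2 were higher, where 7.65% of all genes were, and 9 were lower.

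Single members of that list show its range. Zscan4d was at 87.5 FPKM in early 2-cell, 20.5 in 2-cell and 2.16 in 4-cell embryos. Tcstv3 was at 168.0, 206.5 and 9.84 FPKM in the same stages. Trim43c was at 2.16, 147.0 and 290.2 FPKM and reached 395.1 at the 8-cell stage. Dux, whose product is a double homeobox activator of 2-cell-stage genes, was at 5.15 FPKM in zygotes, 22.3 in early 2-cell and 0.203 in 2-cell embryos, so it was low where the Tdpoz sum was highest.

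The 10 genes whose log2(FPKM + 1) followed the summed Tdpoz level most closely over the 8 stages, of 9568 genes compared, were Gm11544, Ubtfl1, Slc16a6, Prpsap1, Bex6, B020004C17Rik, Klhl11, Ficd, 1700003E24Rik and Gm10696, with Pearson r from 0.993 to 0.966. Ubtfl1, which encodes an HMG-box protein of the preimplantation embryo, was at 0 FPKM in oocytes and zygotes, 5.74 in early 2-cell, 67.1 in 2-cell, 41.0 in 4-cell and 22.7 in 8-cell embryos, and 0.607 in ICM. Klhl11, a kelch protein with a BTB domain, had 6.53 FPKM in early 2-cell, 30.6 in 2-cell, 20.3 in 4-cell and 11.99 in 8-cell embryos. Slc16a6, a transporter of the monocarboxylate carrier family, and Ficd, an enzyme that modifies the chaperone BiP, were highest at the 4-cell stage, at 81.0 and 52.0 FPKM. Prpsap1, an associated protein of phosphoribosyl pyrophosphate synthetase, differed in that it never went below 21.1 FPKM. The points share their libraries and depth. By Spearman rank 3 of these 10 were again among the nearest 10.

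**Figure D3:**
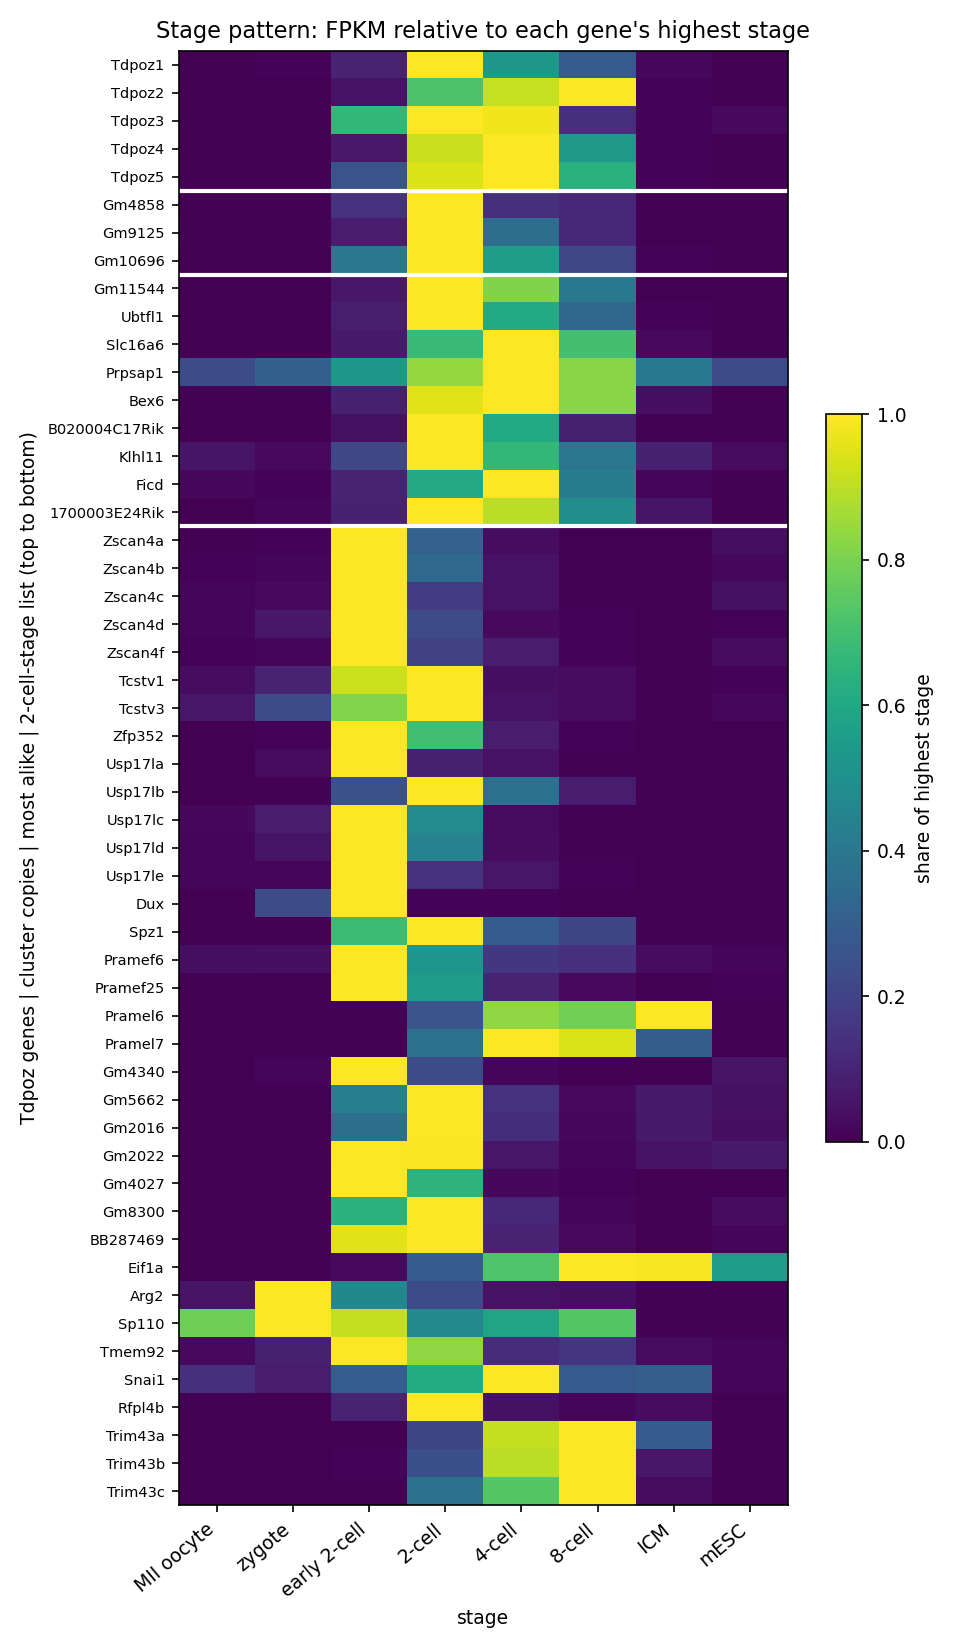
FPKM at each stage divided by the gene's own highest stage (colour, 0 to 1) for the 5 Tdpoz genes, 3 cluster copies, the genes most alike over the stages (Gm10696 is shown with the copies) and the other genes of the 2-cell-stage list. Most rows of the lowest block are brightest in early 2-cell or 2-cell embryos and dark from the 4-cell stage, while the Tdpoz rows stay bright at the 4-cell stage.

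Relatives of the same domain structure outside the cluster had another course. Spop was at 16.5 FPKM in MII oocytes, 11.1 at the 2-cell, 22.9 at the 8-cell stage and 5.73 in mESC, and Spopl stayed between 0.816 and 2.81 FPKM. Cul3, the scaffold that SPOP binds, was at 2.70 FPKM in early 2-cell and 85.0 in 2-cell embryos, then at 42.7 and 19.5 in 4-cell and 8-cell embryos. Of 50 genes of the CUL3 ubiquitin ligase machinery, 8 were counted as higher and 12 as lower from early 2-cell to 2-cell, where 10.5% of all genes were higher and 10.4% lower. The median difference of the 50 was 0.04, and that of all genes 0. Rbx1, the RING subunit of the ligase, and Nedd8, the modifier that activates it, were at 77.0 and 115.4 FPKM at the 2-cell stage. Of 8 other genes with TRAF-type MATH domains none was higher at that step and 1 was lower, beside the same 10.5% and 10.4% of all genes.

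NR5A2 is an orphan nuclear receptor, and its knockdown in 8-cell embryos asks which genes depend on it at that stage. Tdpoz1 was at 0.705, 1.14, 1.55 and 2.38 FPKM in control libraries 1 to 4 and at 4.45, 2.02, 4.88 and 2.84 in knockdown libraries 1 to 4. All knockdown values but that of library 2 were above all controls, and the groups overlapped. The means were 1.44 ± 0.716 (SD, n = 4) and 3.55 ± 1.35 (SD, n = 4), and the log2 difference on the log2(FPKM + 1) scale was 0.89 (SE 0.30). With limma and Benjamini-Hochberg adjustment over all 8170 genes tested, adjusted p was 0.140 (unadjusted 0.0127), which misses the threshold of 0.05.

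Tdpoz2 went the other way. It was at 5.25, 15.8, 11.1 and 9.23 FPKM in control libraries 1 to 4 and at 2.31, 3.50, 10.4 and 4.55 in knockdown libraries 1 to 4. Knockdown libraries 1, 2 and 4 were below all controls, and library 3 was within the control range. The means were 10.3 ± 4.38 and 5.19 ± 3.58 FPKM (SD, n = 4 each), with a log2 difference of -0.95 (SE 0.40) and a limma adjusted p of 0.208 (unadjusted 0.0366).

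Tdpoz4 was at 0 in control libraries 1 to 3 and at 2.11 FPKM in control 4, and at 1.40, 0.839, 0.844 and 2.35 FPKM in knockdown libraries 1 to 4. Every knockdown library had a value above 0, and control 4 was above 3 of them. It did not reach 1 FPKM in enough libraries for the tested set. In the limma fit of all genes without that filter the log2 difference was 0.78 (SE 0.41, adjusted p = 0.441). Tdpoz3 was above 0 in 3 of the 8 libraries, at 0.300 and 0.231 FPKM in controls 1 and 3 and 0.633 in knockdown 4. On the steps left by single fragments these 3 values were worth about 2, 1 and 5 fragments, which is too few for a comparison.

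The 2 of 4 measured members that passed the filter were thus not called, against a background of 1.57% of genes called higher and 0.698% called lower (128 and 57 of 8170, with 1683 at an unadjusted p under 0.05). With the scale of each library set by its median, the same test called 65 genes higher and 80 lower, and the median difference over all genes went from 0.12 to -0.01. The sum of the 4 members was 6.26, 17.0, 12.9 and 13.7 FPKM in controls and 8.15, 6.35, 16.1 and 10.4 in knockdown libraries. The 2 groups covered the same range, with a log2 difference of -0.26 and an SD within groups of 0.54.

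The shares of the sum held by Tdpoz1 and by Tdpoz2 did not overlap between the groups. Tdpoz1 supplied 11.3%, 6.71%, 12.1% and 17.4% of the sum in the controls and 54.6%, 31.7%, 30.3% and 27.4% in the knockdown libraries. Tdpoz2 supplied 67.3% to 93.3% of it in the controls and 28.3% to 64.5% in the knockdown libraries. The ratio of Tdpoz1 to Tdpoz2 was 0.134, 0.0719, 0.140 and 0.258 in the controls and 1.93, 0.576, 0.470 and 0.624 in the knockdown libraries. All 4 knockdown ratios were above all 4 control ratios. Over all pairs of the 7901 tested genes with values above 0 in every library, 11.3% of ratios separated the groups in this way in one direction or the other, so such a separation is common in these libraries. The ratio was formed after the values had been seen and carries no test. Coding sequences of Tdpoz1 and Tdpoz2 are 83.2% identical, with no shared run over 43 bases. Their closer copies lie outside this pair. Of the 100-base coding windows, 39.6% of those of Tdpoz1 occurred in Gm9125 and Gm9117, and 23.5% of those of Tdpoz2 in Gm5773 or Gm9141. Gm9125 has no values in the knockdown libraries. The part of reads shared with such copies in the ratio was not tested. Relative depth was 1 to 2.66 in the controls and 1.42 to 2.90 in the knockdown libraries, and its part in the ratio was not tested.

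**Figure D4:**
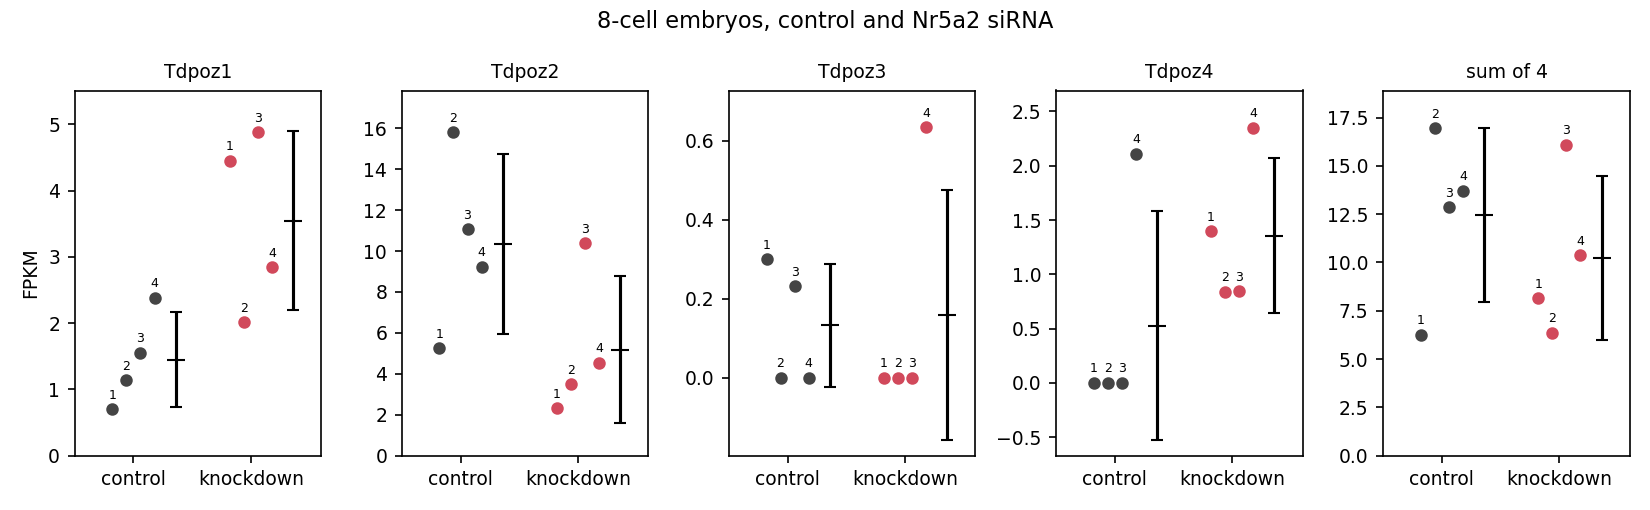
FPKM of Tdpoz1 to Tdpoz4 and their sum in 8-cell embryos, 4 control libraries (grey) and 4 Nr5a2 knockdown libraries (red), with library numbers; the black dash and bar are the mean ± SD of each group. Tdpoz1 is mostly higher and Tdpoz2 mostly lower in the knockdown libraries, while the sums cover the same range.

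The levels in injected controls were unlike those of uninjected 8-cell embryos for some members. In the stage table the 8-cell values were 7.78 FPKM for Tdpoz1, 12.3 for Tdpoz2, 0.776 for Tdpoz3 and 15.9 for Tdpoz4, against control means of 1.44, 10.3, 0.133 and 0.527. Gm4858 was at 2.09 FPKM in the stage table and at 0 in all 4 controls. Genes outside the family differed too. H2afz was at 321.7 FPKM against a control mean of 10.3, and Trim43c at 395.1 against 30.8, while Hsp90ab1 was alike at 1301 and 1361. The tables were normalized separately, so only the values are given. Injection, culture and processing differ together between them and cannot be told apart.

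Other genes gave a frame for these values. Of the 36 genes of the 2-cell-stage list, 34 had values in the Nr5a2 knockdown. Only 10 passed the filter and were tested, and none was called, where 2.26% of all genes tested were. Their median difference was 0.16 against 0.12 over all genes. List genes that did not pass the filter, such as Zscan4d, Zfp352 and Usp17lb, are not covered by that median. Usp17lb was at 0 to 0.539 FPKM in controls and 0 to 7.32 in knockdown libraries (means 0.228 and 3.21). Zfp352 was at 0 to 0.483 and 0 to 2.85 FPKM (means 0.147 and 1.23), and Zscan4d was at 0 in 7 libraries. The groups overlapped for all of these genes, and none was in the tested set. Ubtfl1, the second most alike gene by stage, was at 3.50 to 9.41 FPKM in controls and 7.48 to 11.5 in knockdown libraries, with overlap. Of the CUL3 ligase list 32 genes were tested and 1 was called (3.1%), a share near the 2.26% of all genes tested. That gene was Kbtbd2, a BTB-kelch substrate receptor, with a log2 difference of 1.14 (limma adjusted p = 0.0343). Cul3 itself had means of 3.64 ± 0.634 and 9.77 ± 6.73 FPKM (SD, n = 4 each) and an adjusted p of 0.134 in the same limma fit.

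GATA4 is a transcription factor of the primitive endoderm, and its knockdown in blastocysts asks which genes depend on it there. By then the Tdpoz genes were low. Tdpoz2 was at 0.824, 5.52 and 0.794 FPKM in control libraries 1 to 3 and at 2.94, 2.15, 1.61 and 0.349 in knockdown libraries 1 to 4. Control 2 was above all others, and the remaining 2 controls lay within the knockdown range. The means were 2.38 ± 2.72 (SD, n = 3) and 1.76 ± 1.09 (SD, n = 4), with a log2 difference of -0.11 (SE 0.43). Tdpoz2 was the only member in the tested set and was not called (limma, 8782 genes, adjusted p = 0.99997), where 0% of genes were called higher and 0.0342% lower (3 genes, with 202 at an unadjusted p under 0.05). Gata4 itself did not pass the filter. In the limma fit without the filter its log2 difference was -1.73 (SE 0.43), and it was not called. The fit thus did not call the target either.

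Tdpoz1 had 0.176, 1.65 and 0.306 FPKM in control libraries and 1.02, 0.568, 0.137 and 0.176 in the knockdown libraries, again with control 2 the highest. Tdpoz3 was above 0 in control 2 (0.229 FPKM) and knockdown 1 (0.168 FPKM) only. Tdpoz4 was listed at 0 in all 7 libraries, as were Gm4858 and Gm10696. The summed level was 0.9999, 7.39 and 1.10 FPKM in the controls and 4.13, 2.72, 1.74 and 0.525 in the knockdown libraries, a log2 difference of -0.13 with an SD within groups of 0.98. Without control 2 the difference was 0.54, and without knockdown 4 it was 0.19. The sign of this difference thus turned when either of these libraries was left out.

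The 3 highest sums were in control 2, knockdown 1 and knockdown 2. These are the 3 libraries with Rn45s (the precursor of ribosomal RNA) listed at 0, while the other 4 had 37959 to 44718 FPKM of it. Tdpoz1 and Tdpoz2 were each higher in all 3 of these libraries than in the other 4. Spop (9.59 to 10.6 against 3.90 to 5.57 FPKM), Spopl, Nr5a2 and Ubtfl1 were too, while Gata4 was not. The separation was thus not particular to the Tdpoz genes, and its share over all genes was not computed. The difference in the sum was -0.94 within the 3 libraries without Rn45s (1 control), -0.003 within the 4 libraries with it, and -0.38 with the type of library as a term in the fit. What sets the libraries apart is not given in the labels, and its part in the Tdpoz values was not tested further. The ICM of uninjected embryos had a summed level of 1.64 FPKM with Tdpoz5 and 1.05 without it. That is isolated ICM, while the blastocysts were whole and injected. The ICM values were also normalized separately, so only the values are given.

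**Figure D5:**
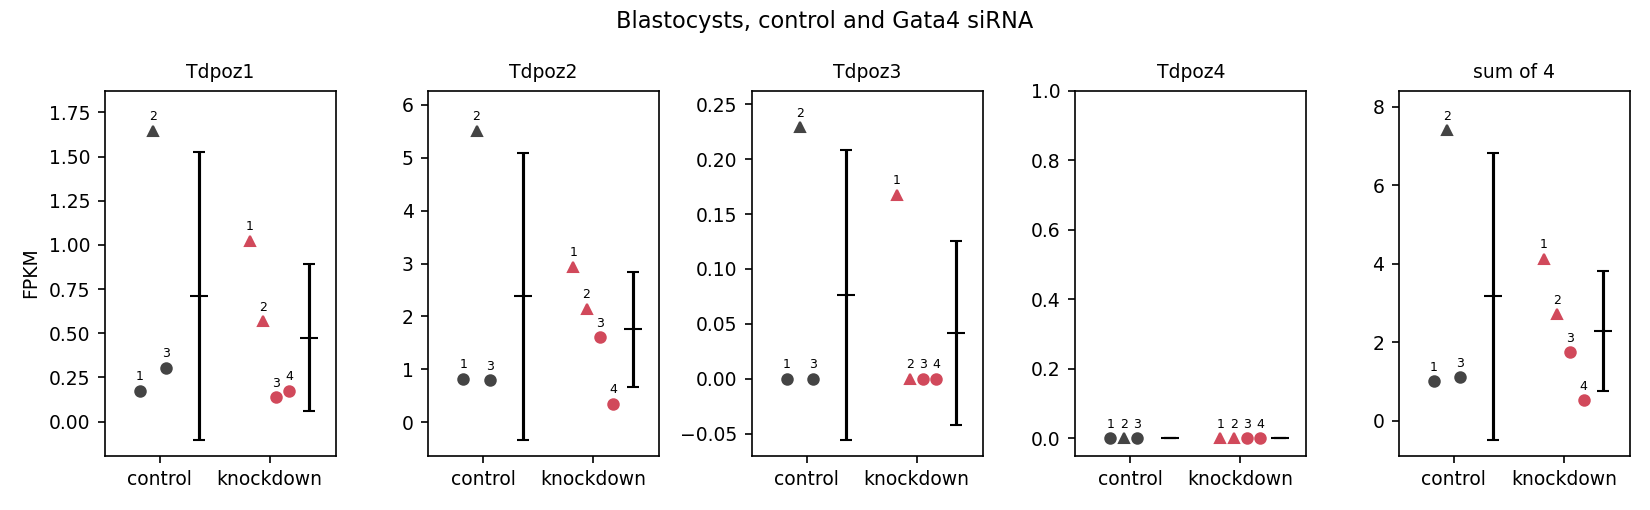
FPKM of Tdpoz1 to Tdpoz4 and their sum in blastocysts, 3 control libraries (grey) and 4 Gata4 knockdown libraries (red), with library numbers; triangles are libraries with Rn45s listed at 0, circles the others, and the black dash and bar are the mean ± SD. The triangles are the highest points for Tdpoz1, Tdpoz2 and the sum, and Tdpoz4 is at 0 in all 7 libraries.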

How the data were processed

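RNA sequencing of 32 mouse samples was used as FPKM values deposited by the authors, in a table by stage (24013 genes, 1 column per stage) and 2 knockdown tables (22536 genes, 1 column per library). Per the submitters' processing notes, CASAVA 1.8 and STAR 2.4.0 were used with the build mm9, and Cufflinks 2.2.1 is named for 20 samples. How replicates were combined per stage is not given in the sources used here.

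Groups followed the labels. Nothing in them says that replicates came from separate collections of embryos, so p-values measure the spread between these libraries. Within each knockdown table, genes were kept if the number of libraries at 1 FPKM or more was no less than the size of the smaller group, and log2(FPKM + 1) was compared with limma 3.58.1 (R 4.3.3, trend in the prior variance), adjusted by Benjamini-Hochberg. The fit was tested on simulated data. Alternatives were pseudocounts of 0.1 and 5, no filter, median and quantile scaling, a replicate block, library type, and leaving out each library. Named genes are the members, the 10 genes of highest Pearson r with their sum, up to 6 genes per list by 2-cell level, called list genes and the targets. Dux, Zscan4d, Rn45s, Gm10697 and the neighbours on chromosome 3 were added after their values were seen. The members and lists were chosen with earlier results of these data known.

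Coding identity and shared windows were computed from GENCODE M21 (Biopython 1.88), and upstream windows from RefSeq, GRCm38.p6. Its coordinates are not those of the files, which use mm9. Protein sequences were not analysed here. Python 3.11.15 with pandas 2.3.3, numpy 2.4.6 and matplotlib 3.10.9 did the rest.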

Additional observations from a re-analysis of the deposited data

Results flagged for a closer look

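Outliers were sought in groups of 4 libraries by the gap of the end value to its neighbour, relative to the group's range, for the 4 measured members, their sum and the Tdpoz1 to Tdpoz2 ratio. Chance alone marks about 1 in 20 groups, and 17 groups were examined. That rate does not hold where 3 libraries are at 0, since any value above 0 in the fourth is then marked by construction, as in all cases here but the ratio. In the Nr5a2 knockdown libraries Tdpoz3 stood apart in library 4 at 0.633 FPKM, with the other 3 at 0. In the 8-cell controls Tdpoz4 stood apart in library 4 at 2.11 FPKM, with the other 3 at 0. In the Nr5a2 knockdown libraries the Tdpoz1 to Tdpoz2 ratio stood apart in library 1 at 1.93. In the Gata4 knockdown libraries Tdpoz3 stood apart in library 1 at 0.168 FPKM, with the other 3 at 0.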

How the results depend on the processing

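In the Nr5a2 knockdown Tdpoz1 kept its higher level and Tdpoz2 its lower level, without being called, under all 14 alternatives, with limma adjusted p from 0.110 to 0.308 and from 0.0718 to 0.392. Tdpoz4 stayed uncalled under its 13 (0.160 to 0.649). The summed difference stayed between -0.53 and -0.08 without any 1 library. The number of genes called was 185, and it was 108 with a pseudocount of 0.1, 11 with no filter (more genes tested) and 55 with the replicate block. Without any 1 library it ran from 21 (without control 1) to 285 (without knockdown 3). Nr5a2 itself (limma adjusted p = 0.0143) missed the threshold with no filter (0.0845) and without control 1 (0.0611). Same-numbered libraries did not deviate together. This cannot show whether the numbers mark pairs, and the main fit did not pair them.

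In the Gata4 knockdown Tdpoz2 changed sign to 0.0078 after quantile normalization, 0.20 with the replicate block, 0.51 without control 2 and 0.20 without knockdown 4 (-0.42 to 0.51 without any 1 library). Tdpoz1 changed sign to 0.21 without control 2 (-0.37 to 0.21). Neither was called (limma adjusted p 0.702 to 1). The summed difference ran from -0.49 to 0.54 without any 1 library and was 0.19 with the block. The number of genes called was 3, all lower. It was 1 with a pseudocount of 0.1 and 1, a higher one, within libraries without Rn45s, a fit with 1 control that is assumed to vary like the knockdown libraries. It was 0 with no filter, after median scaling or quantile normalization, with library type as a covariate and within libraries with Rn45s (558, 494, 484, 704 and 736 genes at an unadjusted p under 0.05). With the block 18 were called, and without any 1 library 1 to 27. Gata4 itself was called only without control 2 (limma adjusted p = 0.000800). Its log2 difference was -2.38 within libraries with Rn45s and -0.55 within libraries without it. The causes were not tested.

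Between stages no sum reversed. From zygote to early 2-cell the log2 difference of 4.08 became 5.41 and 2.39 with pseudocounts of 0.1 and 5, 4.16 at equal totals, 2.98 without Tdpoz5 and 4.74 with the copies. From early 2-cell to 2-cell 2.33 became 2.37, 2.16, 2.74, 2.78 and 2.26 in the same order. From 2-cell to 4-cell -0.06 became -0.47 at equal totals, -0.18 without Tdpoz5 and -0.46 with the copies. From 4-cell to 8-cell -0.68 became -0.69, -0.65, -0.79, -0.71 and -0.81 in that order, and from 8-cell to ICM -4.80 became -5.39, -3.55, -4.87, -4.20 and -4.81. Of the 10 genes most alike, 3 were shared by Spearman rank and 8 under each of the other alternatives. The sums without Tdpoz5 or with the copies were chosen after seeing the data. Low members rest on a few fragments, and read depth is unknown.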

Other observations

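Tdpoz5 is 1 of 186 genes whose stage values are written with more than 6 significant digits, while the other 4 members are not. These genes hold 641 such values, 362 of them ending in 5, and 165 of the 186 have values by stage only, as Tdpoz5 does. How these values were made is not given in the sources used here.

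Upstream windows were also read for the other 2-cell-stage genes. Of 23 list genes with a window, 4 held the DUX motif, against 0.207% of all genes and none of the 3 members. GGATTA was found in 6 of the 23 (7.21% of all genes) and in 1 of the 3 members, Tdpoz1. The AAGGNCA word was found in 13 of the 23 (19.7% of all genes) and in none of the members. AGATAA was found in 4 of the 23 (11.4% of all genes) and CCAAT in 15 (37.5%), each of them also in 1 member. With 3 members no difference from the list can be read. Several list genes are close copies of one another, so these counts are not independent, and no test was made.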
